A study of Mus musculus with 6 samples.

Results

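Connexins are the proteins of gap junctions, the channels that join the cytoplasm of neighbouring cells. Connexin subunits assemble into a half-channel in one cell membrane, which docks with a half-channel of the next cell and lets ions and small metabolites pass. In the kidney's arterioles they link endothelium, smooth muscle and the renin-secreting juxtaglomerular (JG) cells, and loss of connexin 40 in mice is known to disturb the control of renin secretion by blood pressure. The 7 connexin genes described here were taken by name from the annotation of the arrays and were read by 14 of 45037 probe sets, which stand for 7 of 18193 genes. They are Gja1, Gja4, Gja5 and Gjc1, known from vessels, stroma or smooth muscle, and Gjb1, Gjb2 and Gjb6, known mainly from epithelia and glia.

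The JG samples came from adult C57BL6 mice carrying the Ren1c YFP reporter, and were sorted for yellow fluorescent protein (YFP+). The renal mesenchymal stromal cells (MSC) came from the same reporter strain, were sorted with the surface antigen CD44 and were grown to confluence in serum-containing medium. Total RNA of 3 JG and 3 MSC samples was hybridised to single-channel Affymetrix mouse arrays. The MSC had been cultured, and the labels repeat the MSC growth medium for the JG samples, so cell type and culture cannot be told apart in any difference below. Whether the 3 samples labelled as replicates were taken from different mice or cultures is not stated. P-values therefore measure only the spread between these samples.

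Array medians ran from 27.3 to 36.5, and between 34.4% and 41.5% of the probe sets of an array lay below an intensity of 16. Across genes, arrays correlated at 0.807 to 0.887 within the JG group and at 0.971 to 0.975 within the MSC group. JG sample 1 stood nearest to MSC, with correlations of 0.806 to 0.814 against the MSC arrays, about as high as the 0.807 between it and JG sample 2. Cd44, the antigen of the MSC sort, averaged 139 ± 17.3 in JG and 974 ± 81.9 in MSC (SD, n = 3 each). The stromal markers did not all go this way. Of 8 such markers 2 (Cd44 and Vim) were called lower in JG and 2 (Thy1 and Nt5e) higher. Thy1 averaged 1272 in JG and 151 in MSC. Of the renin cell markers, Ren1 and Akr1b7 were not analysed here, and Rgs5, which marks renin cells and pericytes, had 1105, 2343 and 2120 in JG against 86.4, 48.3 and 308 in MSC and was called higher. Ptger4, a prostaglandin receptor gene of renin cells, was called lower, with 17.1, 73.4 and 154 in JG against 309, 427 and 362 in MSC (-2.25 ± 0.59, adjusted p = 0.0494). Agtr1a, for an angiotensin receptor, was not called. No renin cell marker was called lower in 8 of the 17 alternatives given below, and none was called higher without MSC sample 1. All 8 proximal tubule markers and all 7 markers of the thick limb and distal tubule were called higher in JG. Of 8 leukocyte markers 4 were called higher and 0 lower, with sums of 1396 to 3834 in JG and 117 to 379 in MSC. The 4 leukocyte calls became 1 or 2 in 7 of the 17 alternatives. Of 4 mesangial markers 1 (Sfrp2) was called higher and 1 (Pdgfrb) lower. Beside these marker counts, 7.7% of all genes were called higher in JG and 7.63% lower. Summed, the proximal tubule markers ran from 21821 to 28923 in JG and from 367 to 665 in MSC, so the JG samples are named here by their label and not by their purity.

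Values below are deposited intensities per sample. Differences (JG minus MSC ± SE) were taken between log2 values after adding 16 to each intensity. Adjusted p-values are from limma with Benjamini-Hochberg adjustment over all genes. A gene was called at an adjusted p under 0.05. Each gene was represented by its brightest probe set unless another is named. Where a group lies below 16 on all its arrays, the added 16 sets much of the log2 value, which then understates the ratio of the intensities.

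Of the 7 connexin genes only Gjc1 was called, lower in JG, and none was called higher. Across all genes limma called 15.3%, with 7.7% higher and 7.63% lower in JG, so 1 call in 7 was close to the background share. At an unadjusted p under 0.05 there was 1 connexin gene higher in JG (Gjb2) and there were 2 lower (Gja1 and Gjc1), 3 of 7 in all, where 5784 of all 18193 genes had such a p. The JG and MSC values did not overlap for Gjb2, which was higher in JG, and for Gja1, Gja4 and Gjc1, which were lower. That is 1 gene higher and 3 lower, against 20.2% and 18.5% of all genes, or 38.7% in either direction. The median difference of the 7 genes was -0.0060, against 0.07 over all genes. In bulk RNA, fewer cells of a type and less RNA per cell cannot be told apart, and this applies to every difference reported here.

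**Figure D1:**
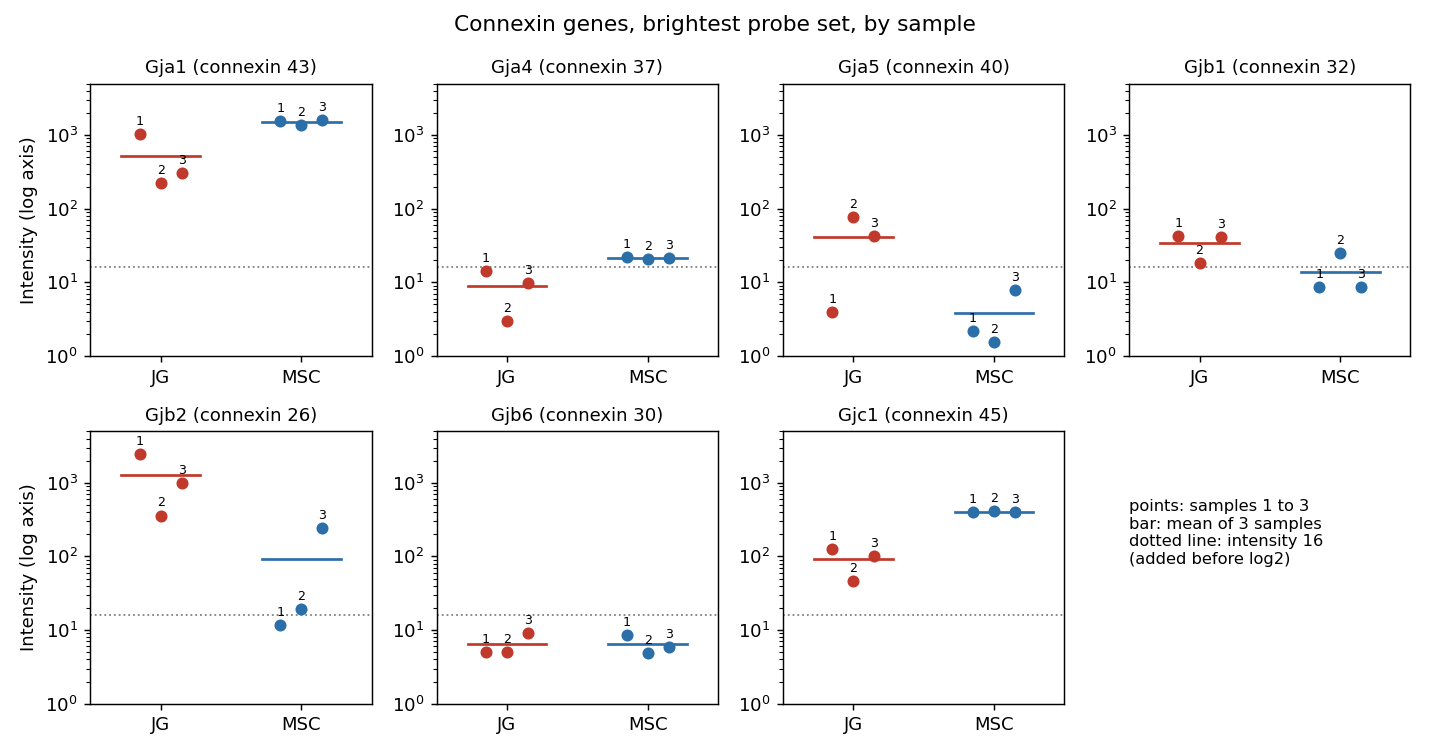
Intensity (log axis) of the brightest probe set of each connexin gene in the 3 JG samples (red, left) and the 3 MSC samples (blue, right), with bars at the group means and sample numbers beside the points. Gjc1 and Gja1 sit lower in every JG sample than in any MSC sample, Gjb2 sits higher, and Gja4, Gjb6 and the MSC values of Gja5 lie near or below the dotted line at 16.

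Start-site sequences are shown for Gja1, Gja5 and Gjb2, the genes with the highest log2 SD among the JG samples, and were chosen after their values were seen. Windows of 300 bases, from 250 before to 50 after the start, were found in the RefSeq table (GRCm38.p6) for 6 of the 7 genes. Capitals mark letters found by a search for the GC box GGGCGG, the AP-1 element TGANTCA, the box named CCAAT, the TATA box TATAAA, the HNF1 half-site GTTAAT, the E-box CACGTG, the T-box element GGTGTGA and the cyclic AMP response element TGACGTCA on both strands. The windows run 5′ to 3′ on the gene's strand. Gja1 lies at chr10:56377050-56377349 (+), Gja5 at chr3:97032152-97032451 (+) and Gjb2 at chr14:57104653-57104952 (-).
Gja1 promoter window: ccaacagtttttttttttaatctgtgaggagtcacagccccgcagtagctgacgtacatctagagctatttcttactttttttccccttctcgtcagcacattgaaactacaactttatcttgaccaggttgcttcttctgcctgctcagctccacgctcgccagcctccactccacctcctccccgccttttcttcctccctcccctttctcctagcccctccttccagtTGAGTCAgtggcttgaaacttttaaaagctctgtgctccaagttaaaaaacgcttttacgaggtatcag
Gja5 promoter window: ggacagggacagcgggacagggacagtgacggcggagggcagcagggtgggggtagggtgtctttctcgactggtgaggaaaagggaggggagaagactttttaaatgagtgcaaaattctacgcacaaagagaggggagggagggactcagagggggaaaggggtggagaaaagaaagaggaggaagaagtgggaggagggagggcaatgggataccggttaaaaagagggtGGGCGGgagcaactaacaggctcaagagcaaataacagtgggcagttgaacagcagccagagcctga
Gjb2 promoter window: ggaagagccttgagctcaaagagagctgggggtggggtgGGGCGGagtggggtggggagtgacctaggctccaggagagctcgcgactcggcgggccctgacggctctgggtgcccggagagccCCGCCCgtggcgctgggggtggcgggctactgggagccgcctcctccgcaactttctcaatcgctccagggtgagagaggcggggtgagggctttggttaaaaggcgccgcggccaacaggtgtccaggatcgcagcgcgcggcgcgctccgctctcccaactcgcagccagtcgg
The windows differed in base composition. Gjb2 had 70% G and C with 27 CpG pairs, Gja5 55.7% with 7 pairs and Gja1 47.7% with 8 pairs, where the median of 32851 windows was 52.7% with 7 pairs. The only motif matched in Gja1 was an AP-1 sequence at position -19 from the start site, and 7.81% of all windows hold one. Gja5 held a GC box at position -17, and Gjb2 held 2 GC boxes, at positions -211 and -126, the second on the opposite strand. A GC box is present in 35.7% of all windows, and no matches in these windows overlapped. A match is a description of letters, not of a bound factor.

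Gjc1, which encodes connexin 45 of vascular smooth muscle and renin-lineage cells, was the only connexin called lower in JG. Gja1 and Gja4 also had all JG values below all MSC values, and differences between the genes were not tested. Its brightest probe set (1449094_at) had 125, 46.8 and 103 in JG samples 1 to 3, against 407, 413 and 399 in MSC samples 1 to 3. Every JG value lay far below the lowest MSC value, and the MSC samples were nearly equal. The difference was -2.05 ± 0.35 (adjusted p = 0.0122). With any 1 MSC sample left out the difference was -2.04 to -2.07, with limma adjusted p = 0.0580, 0.0607 and 0.0582 without MSC samples 1, 2 and 3, which leaves fewer samples to estimate the spread.

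The other probe set of Gjc1 (1447787_x_at) gave 14.96, 24.1 and 198 in JG against 168, 108 and 174 in MSC. JG sample 3 was above all MSC samples there, while JG samples 1 and 2 were far below them, so the groups overlapped. This probe set was not called (-1.34 ± 0.74, limma adjusted p = 0.303 over all probe sets), and without JG sample 3 its difference was -2.21 (adjusted p = 0.0249). Both probe sets of Gjc1 had a lower mean in JG. Most smooth muscle markers moved in the same direction as Gjc1. Of 6 such markers 4 were called lower in JG and 1 (Myh11) higher, against 7.63% and 7.7% of all genes. Their sums were 2014 to 2224 in JG and 15458 to 19952 in MSC. None of the 6 lay below 16 throughout either group, and their part in the Gjc1 difference was not tested.

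Gja1 encodes connexin 43, the most widespread connexin of stromal, smooth muscle and heart muscle cells. Its brightest probe set (1415800_at) had 1023, 226 and 305 in JG, against 1554, 1351 and 1589 in MSC. JG sample 1 was close to the MSC range and the others were far below it. Gja1 averaged 518 ± 439 in JG and 1498 ± 128 in MSC (SD, n = 3 each), and the difference of -1.81 ± 0.55 was not called (adjusted p = 0.0762). Without JG sample 1 it was -2.44 and called (limma adjusted p = 0.00267). Calls rose over all genes in that fit, to 2551 higher and 2643 lower, against 1401 and 1389 with all samples. Without JG sample 2 or 3 the Gja1 difference was -1.39 or -1.59 and not called (limma adjusted p = 0.145 and 0.181).

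Gja1 was read by 6 probe sets, which did not give 1 answer. For 5 of them all JG values lay below all MSC values, with log2 differences from -1.65 to -2.05, none called over all probe sets (limma adjusted p from 0.0980 to 0.323). The sixth, 1415801_at, ran the other way, with 203, 192 and 208 in JG against 145, 128 and 116 in MSC (0.58 ± 0.20, adjusted p = 0.129 over all probe sets). It was the steadiest of the 6 in JG, with a log2 SD of 0.05, where the others had 1.12 to 2.53. Relative to 1415800_at it stood at 19.9%, 85.1% and 68.3% in JG samples 1 to 3, and at 9.31%, 9.47% and 7.32% in MSC samples 1 to 3.

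The remaining 4 probe sets of Gja1, all with the suffix x, spread widely among the JG samples. Probe set 1438650_x_at had 1006, 20.7 and 484 in JG against 1013, 1085 and 1161 in MSC, so JG sample 1 was just below the lowest MSC value. The ratio of JG sample 1 to JG sample 2 was 4.53 for 1415800_at, 8.77 to 48.6 for the suffix x probe sets and 1.06 for 1415801_at. The suffix x marks probes that can match other transcripts. Of the probe sets of other connexins, 1 of Gjc1 carries it and 1 of Gjb1 has the suffix s, which marks probes shared by several transcripts. How these differences between probe sets arose was not tested.

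**Figure D2:**
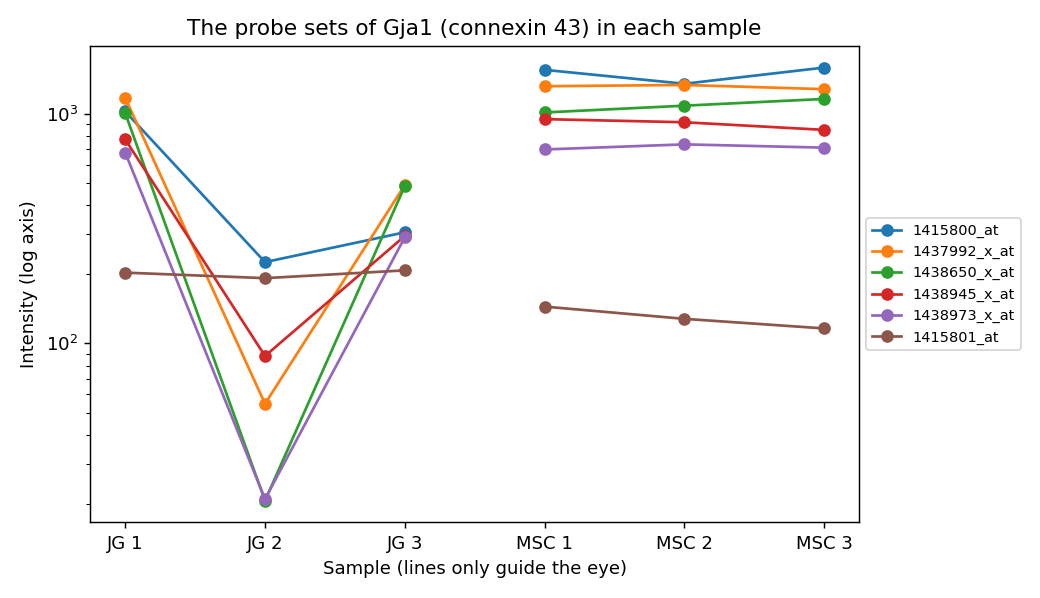
Intensity (log axis) of the 6 Gja1 probe sets in JG samples 1 to 3 (left) and MSC samples 1 to 3 (right), 1 colour per probe set. Lines of 5 probe sets dip in JG sample 2, down to 20.7, and are level in MSC, while 1415801_at stays between 192 and 208 in JG and between 116 and 145 in MSC.

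Gja5 encodes connexin 40, the connexin of renin cells and arterial endothelium. Its single probe set had 3.98, 76.7 and 42.0 in JG, against 2.16, 1.54 and 7.94 in MSC. JG samples 2 and 3 stood well above every MSC sample, and JG sample 1 lay within the MSC range. Gja5 was not called (1.27 ± 0.57, adjusted p = 0.180), and without JG sample 1 the difference was 1.90 (adjusted p = 0.0104). That fit called 2551 of all genes higher and 2643 lower, against 1401 and 1389 with all samples. Without JG sample 2 or 3 the Gja5 difference was 0.79 or 1.13 and not called. The 3 measured renin cell markers gave no common order within JG. Rgs5 had the order of Gja5 (1105, 2343 and 2120). Ptger4 was lowest in JG sample 1 and highest in JG sample 3 (17.1, 73.4 and 154). Agtr1a was highest in JG sample 1, at 420 against 9.15 and 90.0 in JG samples 2 and 3. The endothelial markers had summed levels of 1269, 834 and 1130 in JG samples 1 to 3 and 164 to 176 in MSC. Within JG they differed in order, since Tek, the largest share of the sum, was highest in JG sample 1 (572, 168 and 404). Cldn5 had the order of Gja5, with JG samples 1 and 3 nearly equal (56.4, 211 and 58.2). The part of these cells in the Gja5 values was not tested. Of these 10 markers 6 were called higher in JG, against 7.7% of all genes, and 1 to 3 were in 7 of 17 alternatives. Only Vwf lay below 16 in all JG samples, and 8 lay below 16 in all MSC samples.

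Gja4 encodes connexin 37, which is known beside connexin 40 in arterial endothelium and renin cells. It had 14.4, 2.98 and 9.67 in JG, against 21.7, 20.7 and 21.3 in MSC. All JG values lay below all MSC values, but JG was under 16 throughout and MSC only a little above it. Gja4 was not called (-0.60 ± 0.26, adjusted p = 0.166), and its 95% interval ran from -1.22 to 0.02. Gja4 and Gja5 thus had means on opposite sides of MSC in the JG samples, neither past the threshold.

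Gjb2 encodes connexin 26, known from the inner ear, liver and other epithelia, and had the largest difference of the 7 genes. Its single probe set had 2436, 360 and 985 in JG, against 11.9, 19.1 and 244 in MSC. Every JG sample was above every MSC sample, but the values of each group ranged widely. Gjb2 averaged 1260 ± 1065 in JG and 91.8 ± 132 in MSC (SD, n = 3 each). The difference was 3.94 ± 1.04 with a 95% interval of 1.45 to 6.43, and at adjusted p = 0.0506 it just missed the threshold. It was called without MSC sample 3 (4.96, adjusted p = 0.0301) or JG sample 2 (4.63, adjusted p = 0.0448), and across 17 alternatives the adjusted p ran from 0.0237 to 0.167, under 0.05 in 10.

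Markers of tubule segments stood beside Gjb2 in JG. The collecting duct sum was 4784, 2661 and 3932 in JG samples 1 to 3, and the thick limb and distal tubule sum 13235, 8017 and 10889. Both sums had the same order of samples as Gjb2. Single markers did not all share it. Aqp2 of the collecting duct (194, 329 and 123) and Cldn16 of the thick limb (311, 382 and 70.2) were highest in JG sample 2. Umod of the thick limb (4909, 4400 and 5161) and Foxi1 of the collecting duct (17.4, 1 and 120) were highest in JG sample 3. The proximal tubule sum, at 27501, 21821 and 28923, did not share the order of Gjb2. In MSC the collecting duct sums were 44.6, 108 and 86.7 and the thick limb and distal tubule sums 35.2, 62.0 and 51.2. MSC sample 3, where Gjb2 was highest among MSC, was the highest in neither. Of the collecting duct markers 4 of 6 were called higher in JG, against 7.7% of all genes. None lay below 16 in all JG samples and 3 lay below 16 in all MSC samples. The stromal sum had the JG order of Gjb2 and Gja1, at 19852, 9833 and 11799, against 18267 to 20662 in MSC. Of its markers Nt5e (113, 939 and 645) and Eng (40.4, 105 and 65.6) were lowest in JG sample 1 and highest in JG sample 2, while the rest shared that order. The part of these cells in the Gjb2 and Gja1 values was not tested.

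**Figure D3:**
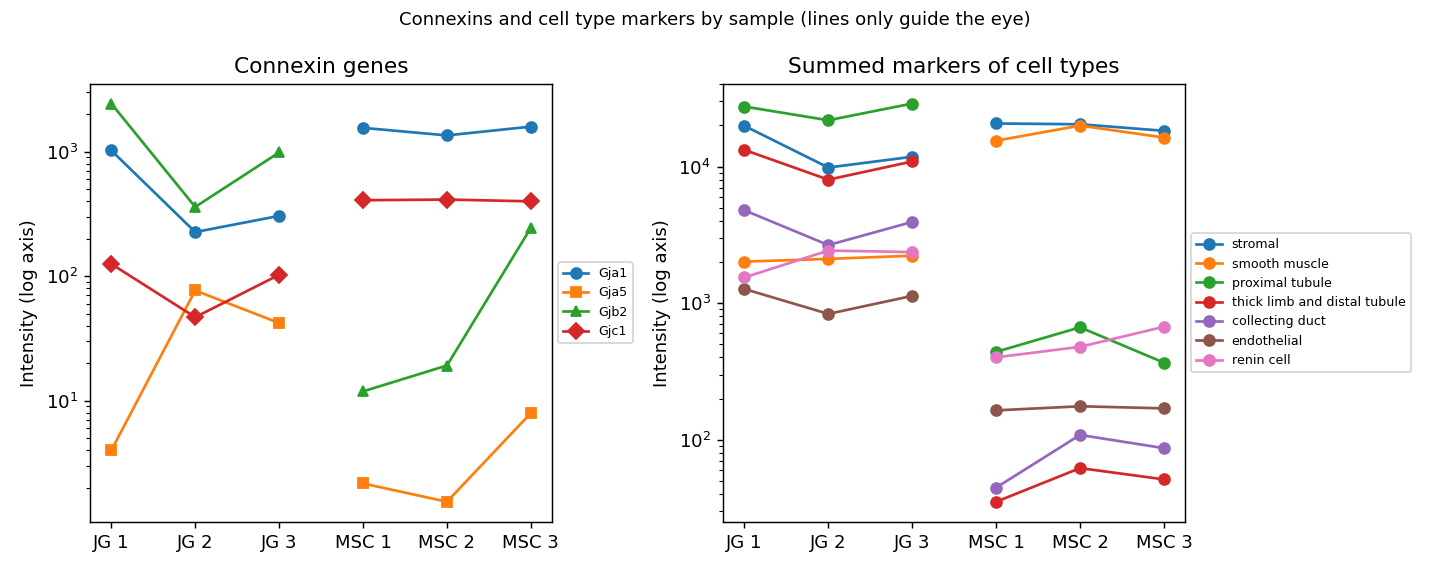
Left, intensity (log axis) of Gja1, Gja5, Gjb2 and Gjc1 in JG samples 1 to 3 and MSC samples 1 to 3; right, summed intensity (log axis) of marker lists in the same samples. Gja1 and Gjb2 are highest and Gja5 is lowest in JG sample 1 among the JG samples, and Gjb2 reaches 244 in MSC sample 3.

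Gjb1 encodes connexin 32 of liver cells and Schwann cells. Its brighter probe set had 42.1, 18.5 and 41.6 in JG, against 8.56, 24.96 and 8.52 in MSC. JG samples 1 and 3 were above all MSC samples, and JG sample 2 was below MSC sample 2. It was not called (0.74 ± 0.34, adjusted p = 0.193), nor was the other, dimmer probe set, with 30.7, 1.31 and 6.33 in JG and 5.62, 7.63 and 10.0 in MSC (0.15 ± 0.40, adjusted p = 0.846 over all probe sets).

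Gjb6 encodes connexin 30 of the inner ear, skin and astrocytes, and its gene is the neighbour of Gjb2 on chromosome 14. It had 4.96, 5.01 and 9.13 in JG, against 8.58, 4.90 and 5.81 in MSC, with all 6 values below 16. The difference was -0.0060 ± 0.22, with a 95% interval of -0.54 to 0.52 (adjusted p = 0.988). Gja3, the neighbour of Gjb2 on its other side, had 26.3, 32.1 and 11.6 in JG against 27.7, 57.9 and 53.2 in MSC. That difference did not pass the threshold (-0.66 ± 0.34, adjusted p = 0.229). The JG excess of Gjb2 was thus not seen in the probe sets of its adjoining connexin genes, although a test between genes was not made.

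**Figure D4:**
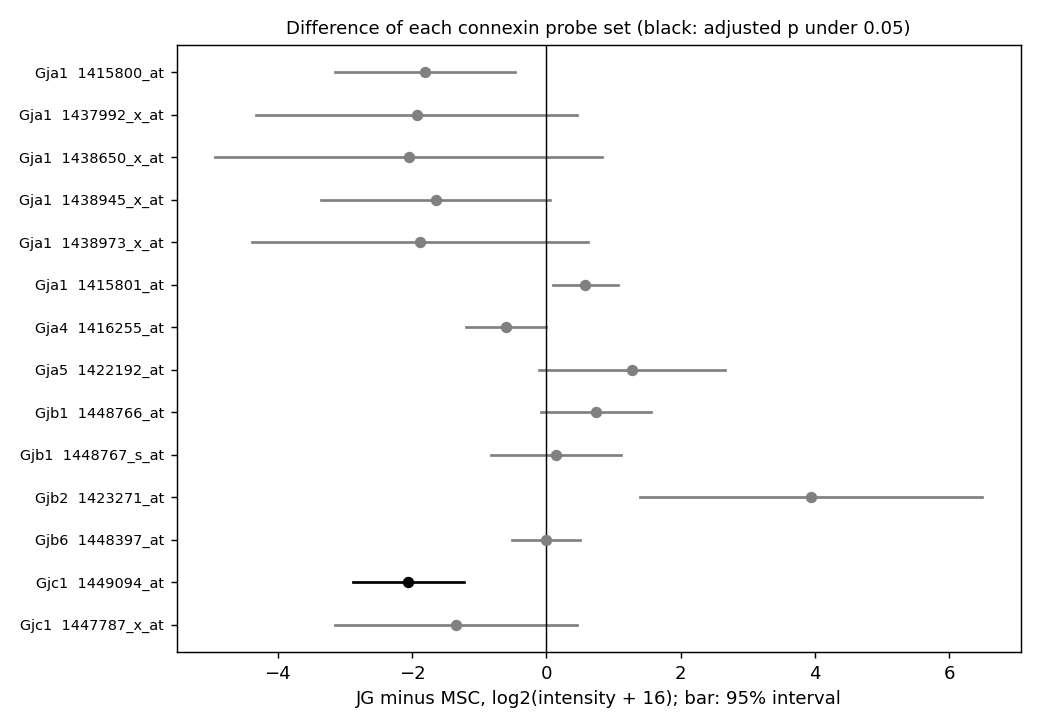
Difference JG minus MSC of each of the 14 connexin probe sets (points, log2 of intensity plus 16) with 95% intervals (bars), grouped by gene from top to bottom. The interval of Gjb2 is the farthest above 0, that of 1449094_at for Gjc1 is the only one called (black), and 1415801_at is the 1 Gja1 probe set with a positive difference.

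At the level of probe sets, 1 of 14 was called lower in JG and 0 higher, against 5.57% and 4.23% of all probe sets, or 9.8% in either direction. An unadjusted p under 0.05 was found for 5 of 14, and for 12230 of all 45037 probe sets. The groups did not overlap for 2 probe sets higher and 7 lower in JG, against 16.1% and 18.1% of all probe sets, or 34.2% in either direction. Of those 7, 5 belong to Gja1 and share their target transcript. The spread within JG exceeded that within MSC for the brightest probe sets of Gja1, Gja4, Gja5, Gjb6 and Gjc1, was the same to 2 decimals for Gjb1 (0.43) and was smaller for Gjb2 and for probe set 1415801_at of Gja1 (0.05 in JG and 0.14 in MSC). The log2 SD of Gja5 was 1.13 in JG and 0.25 in MSC, that of Gjc1 0.62 and 0.02, and that of Gja4 0.34 and 0.02, while Gjb2 had 1.35 and 1.77. The median over all genes was 0.54 in JG and 0.26 in MSC, exceeded by 4 of 7 members in JG and 2 of 7 in MSC.

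The genes with the most similar profiles over the 6 arrays were found by the root mean square difference of centred log2 values. They were Msantd4, Uso1 and Ttc39b for Gja1 (0.11 to 0.12), Spop, Irf2bp2 and Nckap1 for Gja4 (0.07 to 0.08), and Derl3, Ifi27l2b and Spock2 for Gja5 (0.07 to 0.10). Those nearest to Gjb1 were Osgin1, Gzmb and Slc30a3 (0.12 to 0.16), to Gjb6 the dim Cyth4, Bnc1 and Usp26 (0.03 to 0.04), and to Gjc1 Lsg1, Rcn1 and S100pbp (0.08 to 0.12). For Gjb2 the nearest, Ipcef1, Kcp and Col5a3, lay farther off, at 0.64 to 0.80. Ipcef1 had 737, 147 and 357 in JG, against 11.03, 5.35 and 50.3 in MSC, and thus the same highest and lowest JG sample and the same highest MSC sample as Gjb2. No gene lay within 0.5 of Gjb2. For the others there were 820 (Gja5), 843 (Gja1), 919 (Gjc1), 2690 (Gjb1), 4716 (Gja4) and 6346 (Gjb6), so those lists of 3 are a small share of many like profiles. The measure was not scaled, so these counts depend on the size of a gene's differences, which was largest for Gjb2 and smallest for Gjb6. Over the 6 arrays the 3 genes nearest to Gjb2 correlated with it at 0.976 to 0.998, and those nearest to Gjb6 at 0.923 to 0.983. A likeness over 6 arrays in 2 groups is a description.

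The rest of the channel family was dim or not called. Of 13 other connexin genes 7 were measured, and none was called at a limma adjusted p or at an unadjusted p under 0.05. The brightest value among them was 57.9, for Gja3. Of the 3 pannexin genes, which encode related channels that open to the outside of the cell, none was called, and Panx1 had an unadjusted p under 0.05. Panx1 had 79.8, 38.5 and 161 in JG, against 202, 459 and 254 in MSC. All JG values lay below all MSC values, and the difference was -1.64 ± 0.51 (adjusted p = 0.0805).

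Genes whose products anchor, modify or remove connexins, listed as partners together with genes of cadherins and desmosomal proteins, went both ways. Of 24 measured partners 2 were called higher and 4 lower in JG, against 7.7% and 7.63% of all genes, and their median difference was -0.31. The list was chosen with earlier results of these data known, so these counts only describe it. The cadherin genes were opposed: Cdh1, which encodes E-cadherin of epithelia, had 812, 303 and 487 in JG against 2.41, 6.13 and 8.15 in MSC (4.57 ± 0.38, adjusted p = 0.000865). Cdh2, which encodes N-cadherin of mesenchyme, had 35.5, 50.5 and 25.3 in JG against 1189, 837 and 1178 in MSC (-4.36 ± 0.29, adjusted p = 0.000303). Dsp, for the desmosomal protein desmoplakin, rose in JG, with 305, 3533 and 2460 against 32.6, 18.8 and 69.9 in MSC (4.75 ± 0.93, adjusted p = 0.0199). JG sample 1 was the lowest of the JG samples for Dsp and the highest for Cdh1.

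The connexin partners that fell in JG included the scaffold that binds the tail of connexin 43. Tjp1, for the tight junction protein ZO-1, had 337, 681 and 403 in JG, against 1980, 1502 and 1305 in MSC (-1.76 ± 0.34, adjusted p = 0.0189). Nedd4, for a ubiquitin ligase of connexin 43, had 2007, 1840 and 1754 in JG against 6211, 4506 and 4657 in MSC (-1.44 ± 0.24, adjusted p = 0.0113). The kinase gene Akt1 had 125, 24.8 and 114 in JG against 367, 669 and 707 in MSC (-2.66 ± 0.55, adjusted p = 0.0242). These groups did not overlap. Without MSC samples 1, 2 and 3 the 4 lower genes became 1, 2 and 1. Lower calls over all genes fell there from 1389 to 521, 433 and 411. The 2 higher genes became 1 without JG sample 3 or any 1 MSC sample. Higher calls over all genes fell from 1401 to 986 without JG sample 3 and to 719 to 728 without 1 MSC sample. Cdh1 and Cdh2 were called in all 17 alternatives.

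Of 21 measured transcription factors and Notch receptors linked to connexin genes, 6 were called higher and 2 lower in JG, against 7.7% and 7.63% of all genes. Their median difference was 0.62. This list too was chosen with earlier results of these data known, so its counts are a description. Hnf4a, a nuclear receptor of kidney and liver epithelium, had 947, 515 and 1322 in JG, against 12.2, 15.7 and 12.8 in MSC (4.90 ± 0.37, adjusted p = 0.000568). Mef2c, a factor of muscle and vessels, was 243, 76.0 and 137 in JG against 18.8, 13.3 and 9.20 in MSC (2.38 ± 0.41, adjusted p = 0.0131). Notch1 (2.29 ± 0.37, adjusted p = 0.0104) and Irx3, known as a repressor of Gja1 in the mouse heart (1.97 ± 0.32, adjusted p = 0.0109), were also higher. All JG values of these 4 genes lay above all MSC values.

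The regulators called lower in JG were Tbx18, a factor of the mural and stromal lineage, and Sp3, which binds GC boxes. Tbx18 had 23.0, 10.2 and 16.4 in JG against 53.0, 58.7 and 65.0 in MSC (-1.22 ± 0.25, adjusted p = 0.0225). Sp3 had 96.6, 45.3 and 81.5 in JG against 222, 185 and 156 in MSC (-1.20 ± 0.31, adjusted p = 0.0475). Both lost the call without any 1 MSC sample or without JG sample 3, and Sp3 also without JG sample 2. The 6 higher regulators became 3, 2 and 3 without MSC samples 1, 2 and 3. Higher calls over all genes fell there from 1401 to 719, 719 and 728. Hnf4a moved with the tubule markers given above, and the part of tubule cells in its difference was not tested.

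**Figure D5:**
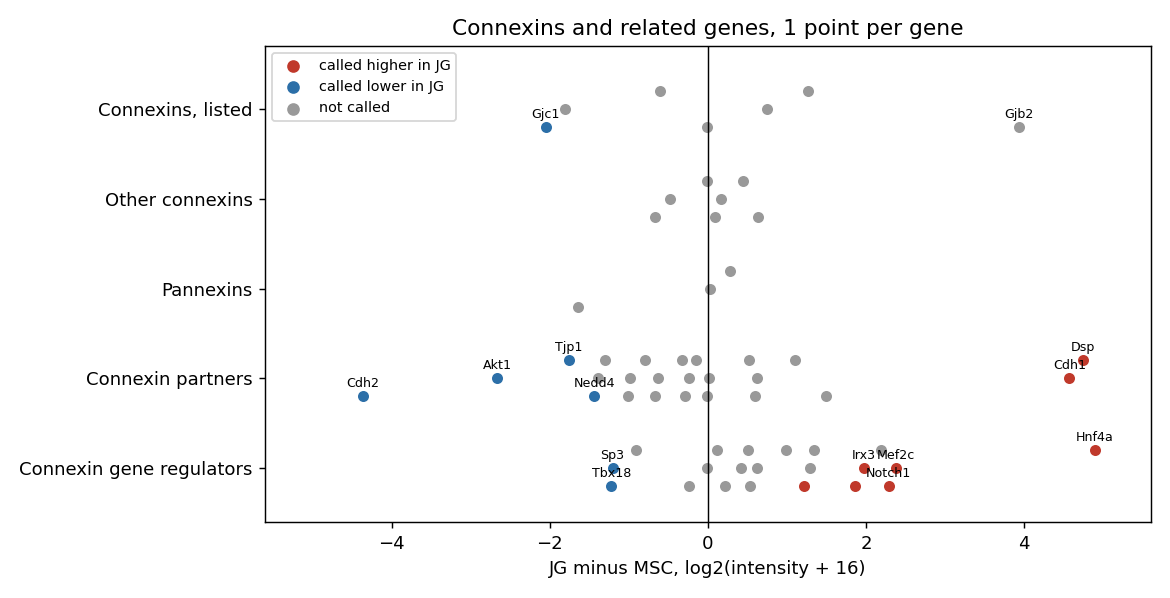
Difference JG minus MSC (log2 of intensity plus 16) of each measured gene in the listed connexins, the other connexins, the pannexins, the connexin partners and the connexin gene regulators, 1 point per gene. Red points are called higher in JG, blue points lower and grey points not called; all channel genes except Gjc1 are grey, while Cdh1, Dsp and Hnf4a lie above 4 and Cdh2 lies below -4.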

How the data were processed

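The authors deposited 1 table with a linear intensity per probe set for 6 Affymetrix arrays, made from 100 ng of total RNA per the labels' protocols. Probe summary, background subtraction and scaling are not given in the sources used here. No detection calls were used. Platform annotation paired 34945 of 45037 probe sets with 1 gene, 932 with several and 9160 with none. None of those with several genes named a connexin listed here.

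Log2 of the intensity plus 16 was modelled as JG minus MSC with limma 3.58.1 under R 4.3.3 (lmFit, then eBayes), on 18193 genes (brightest probe set) and on all probe sets, without covariates, further normalization or filter, at an adjusted p of 0.05. The fit was tested on simulated data. Named genes were the 7 members with all probe sets, called or bright (group mean of at least 100) other connexins and pannexins, up to 4 called partners and regulators per direction, and the 3 nearest profiles per member. Gja3, as a neighbour of Gjb2, and marker genes were named beside these, Gja3 after its values were seen. The members and lists were chosen with earlier results of these data known. Same-numbered samples of the 2 groups correlated at -0.20, -0.01 and -0.01 in their deviations from the group means, so the numbers were not taken as pairs. No array pair was identical. Alternatives were quantile normalization, median centring, pseudocounts of 1 and 64, the mean of probe sets, filters on dim genes (25th percentile, median), no suffix s or x, a trended robust prior, array weights, a replicate block and each sample left out. RefSeq tables (GRCm38.p6) gave symbols and promoter windows. Figures were drawn with matplotlib 3.10.9.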

Additional observations from a re-analysis of the deposited data

How the results depend on the processing

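The number of arrays and their signal over background limit these results, since 3 samples a group leave little to estimate spread and Gja4, Gja5, Gjb1 and Gjb6 lay partly or wholly below 16. All differences here are JG minus MSC on the log2 scale, with limma adjusted p-values. The direction was kept in every alternative run for Gja1, Gja4, Gja5, Gjb1, Gjb2 and Gjc1, whereas the near-zero value of Gjb6 reversed.

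Gjc1 lost its call only without an MSC sample, with differences of -2.29 to -1.71 over all leave-one-out fits. Gja1 was called with array weights (-2.08, adjusted p = 0.00406) and without JG sample 1, and ran from -2.44 to -1.39 over the leave-one-out fits. Gja5 was called with array weights (1.46, adjusted p = 0.0180) and without JG sample 1, with 0.79 to 1.90 over the leave-one-out fits. The pseudocount moved the dim genes most. With 1 and with 64 added, Gja5 was 2.62 and 0.57, Gja4 -1.36 and -0.23, and Gjb1 1.31 and 0.33, none of them called. Gjb2 was called with quantile normalization (4.03), median centring (3.92), a pseudocount of 1 (4.58), array weights (3.92), and at an unchanged 3.94 with genes under the 25th percentile or the median left out, with the mean of probe sets or with the trended robust prior. Over the leave-one-out fits it ran from 3.27 to 4.96. Gjb6 was 0.12 with array weights (0.11 over all probe sets) and -0.093 to 0.062 over the leave-one-out fits. The suffix s probe set of Gjb1 (1448767_s_at) reversed to -0.077 with a pseudocount of 1, to -0.016 with array weights and to -0.27 without JG sample 1, which was its lowest value over the leave-one-out fits, the highest being 0.45. The genes nearest to Gjb6 reversed too, Cyth4 to -0.014 with quantile normalization, to -0.0052 with median centring and between -0.060 and 0.072 over the leave-one-out fits, Bnc1 between -0.039 and 0.078, and Usp26 to 0.066 with array weights and between -0.078 and 0.046. For the values that reversed or crossed the threshold the cause was not tested, beyond the fewer samples or genes that an alternative holds.

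The count of connexin genes called higher was 1 with quantile normalization, median centring, a pseudocount of 1, either filter, the mean of probe sets or the trended robust prior, 2 with array weights, and 0 to 1 over the leave-one-out fits. The count called lower was 2 with array weights and 0 to 2 over the leave-one-out fits. The count of connexin probe sets called higher was 1 with a pseudocount of 64, either filter, the trended robust prior or array weights, and 0 to 1 over the leave-one-out fits, and the count called lower was 3 with array weights, 0 with the replicate block and 0 to 3 over the leave-one-out fits. Over all genes, 1401 were called higher and 1389 lower. With array weights these were 3208 and 2969, with the replicate block 903 and 710, and over the leave-one-out fits 719 to 2551 and 411 to 2643. The highest leave-one-out counts were those without JG sample 1. With the replicate number as a block Gjc1 kept its call at the gene level (adjusted p = 0.0401) and lost it over all probe sets (0.0634). Each JG sample did not correlate best with the MSC sample of its own number.

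Among connexin partners, the block ended the calls of Akt1 (adjusted p = 0.0604) and Tjp1 (0.0608), and among regulators those of Tbx18 (0.0802) and Sp3 (0.0930). The partners called lower were 7 with the mean of probe sets, 9 with array weights and 2 with the block, and those called higher 4 with array weights. The regulators called higher were 10 with array weights, and those called lower 1 with quantile normalization, a pseudocount of 1, the 25th percentile filter or the trended robust prior, and 0 with the median filter or the block. Tjp1 was not called with quantile normalization (0.0519), Nedd4 not with a pseudocount of 1 (0.0553) and Mef2c not with the mean of probe sets (0.0511).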
